A study of Mus musculus with 16 samples.

Results

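Connexins form gap junctions and pannexins form single-membrane channels, and the genes described here are the 6 connexin genes Gja1, Gjb2, Gjb6, Gjc1, Gjc3 and Gjd2 and the 2 pannexin genes Panx1 and Panx2. They were taken by gene symbol from the isoform table, and the FPKM (fragments per kilobase of transcript, scaled to the number of mapped reads) of their isoforms were summed. These 8 genes have 28 of the 135202 isoforms in the table and are 8 of its 53854 genes. The table lists 23 connexin and pannexin symbols in all.

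The RNA came from 16 primary cultures of wild-type mouse cortical neurons, prepared at embryonic day 15. TIA (tianeptine, an antidepressant) at 10 μM or vehicle was added at 8 DIV (days in vitro), and 24 h later the cultures went through 3 h of OGD (oxygen-glucose deprivation, a culture model of ischemia) or a sham procedure. RNA was extracted after 6 h of reoxygenation. The 4 groups, of 4 cultures each, were CONTROL-VEH (sham, vehicle; cultures 1 to 4), CONTROL-TIA (sham, TIA; cultures 5 to 8), OGD-VEH (OGD, vehicle; cultures 9 to 12) and OGD-TIA (OGD, TIA; cultures 13 to 16). The labels call the vehicle cultures untreated. They do not say which embryos or preparations a culture came from, so p-values measure the spread between these cultures.

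A connexin subunit assembles with others into a hemichannel, and the hemichannels of neighbouring cells dock to form a gap junction through which ions and small metabolites pass. Pannexins form large-pore channels that do not dock and that release ATP, which purinergic receptors of nearby cells sense. In brain, Gja1 (connexin 43) and Gjb6 (connexin 30) couple astrocytes, Gjb2 (connexin 26) is found in glia and meninges, Gjc3 (connexin 29) in the oligodendrocyte lineage, Gjc1 (connexin 45) in some neurons and vascular cells, and Gjd2 (connexin 36) forms the electrical synapses of neurons. Panx1 is broadly expressed and Panx2 is mainly neuronal.

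The cultures held RNA of several cell types. The summed FPKM of 12 neuron markers was between 2682 and 3472 in CONTROL cultures and between 1321 and 2805 in OGD cultures, and 12 astrocyte markers summed to between 817.8 and 1838 in CONTROL and between 917.2 and 2897 in OGD cultures. Most defining markers of microglia (Cx3cr1, Trem2, Tmem119) and of endothelium (Cdh5, Cldn5) were at or near 0. CONTROL-VEH culture 4, OGD-VEH culture 12 and OGD-TIA culture 16 stood apart, with the highest summed astrocyte markers (1838 to 2897, against at most 1604 in the other 13 cultures), oligodendrocyte markers (38.3 to 48.7 against at most 30.1) and endothelial and mural markers (5.07 to 6.53 against at most 2.87). Most of the endothelial and mural sum in these 3 cultures was the single gene Pdgfrb (4.335, 4.742 and 3.612 FPKM, in the same order). Because these cultures stood apart, results are also given without them, each the last in number of its group, where results rest on them. Without them, 2 of all genes tested were differentially expressed between OGD-VEH and CONTROL-VEH, against 666 with them. In these bulk libraries, fewer cells of a type and less RNA per cell cannot be told apart.

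The stretch of 250 bases before the transcription start was taken from RefSeq (GRCm38.p6) for 6 of the 8 genes; Gjc1 and Panx2 were not in that table. Those of Gja1 and Gjc3, which had higher means after OGD, and of Gjd2, which had lower ones, are printed 5′ to 3′ on the strand of the gene. They lie at chr10:56377050-56377299 (plus strand), chr5:137963099-137963348 (minus strand) and chr2:114013620-114013869 (minus strand). Capitals mark TGANTCA, the AP-1 element, and TGACG, the core of a cAMP response element, both searched on both strands.
Gja1: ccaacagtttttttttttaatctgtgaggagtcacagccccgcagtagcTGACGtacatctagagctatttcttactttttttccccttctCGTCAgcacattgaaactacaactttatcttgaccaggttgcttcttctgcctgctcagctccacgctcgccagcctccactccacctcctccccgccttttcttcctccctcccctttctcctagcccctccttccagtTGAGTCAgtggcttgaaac
Gjc3: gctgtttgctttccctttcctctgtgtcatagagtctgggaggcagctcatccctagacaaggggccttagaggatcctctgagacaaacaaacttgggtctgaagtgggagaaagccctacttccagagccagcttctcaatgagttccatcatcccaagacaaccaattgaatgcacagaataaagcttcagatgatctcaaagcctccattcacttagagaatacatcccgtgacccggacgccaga
Gjd2: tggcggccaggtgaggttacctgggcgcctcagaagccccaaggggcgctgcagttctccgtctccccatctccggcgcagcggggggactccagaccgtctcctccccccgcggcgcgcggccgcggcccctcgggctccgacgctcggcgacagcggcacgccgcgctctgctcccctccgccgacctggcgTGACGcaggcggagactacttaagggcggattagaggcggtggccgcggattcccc
Gja1 held 1 AP-1 element, whose first base lies 19 bases before the start, and 2 TGACG matches. Gjd2 held 1 TGACG match, and Gjc3 neither motif. Among 32851 such stretches, 6.75% held TGANTCA and 17.8% held TGACG. Of the other 3 genes with a stretch, Gjb2 and Panx1 each held 1 TGACG match, and none of the 3 held TGANTCA. The core hypoxia response element ACGTG was in none of the 6, and in 16.6% of all stretches. The G+C content was 50.0% for Gja1, 48.8% for Gjc3 and 74.0% for Gjd2.

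The 8 genes covered a wide range of levels per transcript length. Over the 16 cultures, the mean summed FPKM was 319.9 for Panx1, 79.0 for Panx2, 47.0 for Gja1, 8.69 for Gjc1, 5.09 for Gjd2, 0.298 for Gjc3, 0.116 for Gjb2 and 0.0224 for Gjb6. Neighbours in this order were separate in all cultures except for those of 3 pairs, whose ranges overlapped: Panx2 and Gja1, Gjc3 and Gjb2, and Gjb2 and Gjb6. The top of the order depended on how isoforms were combined, because isoforms of about 355 bases carried most of the FPKM of both pannexins. With isoforms weighted by length, the mean was 121.4 for Panx1, 78.7 for Gja1 and 29.4 for Panx2, so that Gja1 stood above Panx2 in 16 of 16 cultures, where the plain sum put Panx2 above Gja1 in 13.

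**Figure D1:**
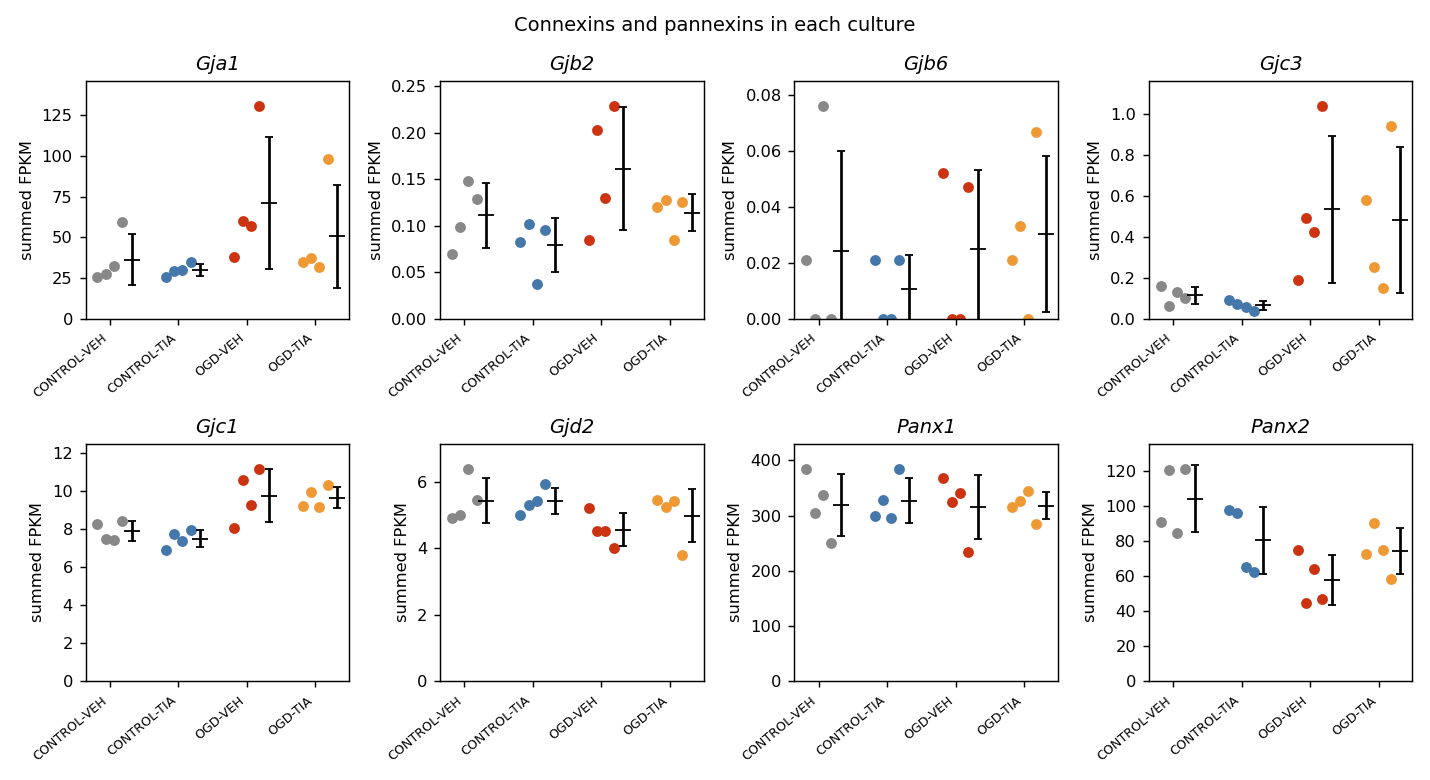
Summed FPKM of the 8 genes in each of the 16 cultures, by group, on linear axes that start at 0. Points are cultures in order of their number, and the black bars give the mean and SD of 4 cultures; Panx2 of all OGD-VEH cultures (44.7 to 74.8) lies below all CONTROL-VEH cultures (84.7 to 120.8), and Gjc3 of all OGD cultures lies above the CONTROL cultures of the same arm.

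Panx2 was lower after OGD in vehicle-treated cultures. Its summed FPKM was 90.6, 120.3, 84.7 and 120.8 in CONTROL-VEH cultures 1 to 4, and 74.8, 44.7, 63.9 and 47.1 in OGD-VEH cultures 9 to 12. All OGD-VEH cultures lay below all CONTROL-VEH cultures, with means of 57.6 ± 14.3 and 104.1 ± 19.2 (SD, n = 4 each). On the log2(FPKM + 0.1) scale, on which all fold changes below are given, Panx2 fell by 0.87 (SE 0.20, limma adjusted p = 0.0437), which passed the adjusted p of 0.05 but not the log2 size of 1 that a differentially expressed gene (DEG) needed. The two-sided exact permutation test gave p = 0.0286, the smallest that 4 against 4 cultures allow. In this comparison 4.06% of the 16404 genes tested were DEGs (2.4% higher and 1.66% lower after OGD), 8.39% had an adjusted p of at most 0.05 (4.97% higher, 3.41% lower), and in 9.92% all OGD-VEH cultures lay below all CONTROL-VEH cultures. Among the 5 members that passed the filter of 0.5 FPKM (Gja1, Gjc1, Gjd2, Panx1 and Panx2), 0 were DEGs, and Panx2 was the 1 with an adjusted p of at most 0.05. That adjusted p held without culture 9 (log2 fold change -1.0, adjusted p = 0.00925, a DEG) and was above 0.05 without any other single culture and without cultures 4 and 12 (-0.70, adjusted p = 0.119).

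In the TIA arm Panx2 did not pass the test. It was at 97.5, 96.0, 64.8 and 62.5 FPKM in CONTROL-TIA cultures 5 to 8 and at 72.4, 90.3, 74.9 and 58.3 in OGD-TIA cultures 13 to 16. The CONTROL-TIA cultures split into a higher and a lower pair, and the OGD-TIA cultures lay mostly between them. The log2 fold change was -0.10 (SE 0.19, adjusted p = 0.793, 95% confidence interval -0.55 to 0.34). The difference between both OGD effects, tested as an interaction, was 0.76 (SE 0.29, 95% confidence interval 0.14 to 1.39), with an unadjusted p of 0.0204 and an adjusted p of 0.723 in limma. Of all genes, 6.06% had an unadjusted p under 0.05 in that test and 0 passed adjustment. Panx2 was 0.38 higher on the log2 scale in OGD-TIA than in OGD-VEH (SE 0.20, adjusted p = 0.552) and 0.39 lower in CONTROL-TIA than in CONTROL-VEH (log2 fold change -0.39, SE 0.20, adjusted p = 0.9995). These comparisons share their groups, so the values are not separate evidence.

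Over both arms, with the arm as a term in the fit, Panx2 fell by 0.48 on the log2 scale (SE 0.17, adjusted p = 0.0429). Over both arms 32.1% of the 16369 genes tested had an adjusted p of at most 0.05, 18.7% with a higher and 13.4% with a lower level, and 4.76% were DEGs (2.79% higher, 1.97% lower). The value for Panx2 rested on single cultures: its adjusted p was above 0.05 without any one of cultures 1 to 6, 10, 11, 12 and 16, and without cultures 4, 12 and 16 together the log2 fold change was -0.32 (SE 0.18, adjusted p = 0.218). The neuron markers moved with Panx2: 8 of 12 had an adjusted p of at most 0.05 and a lower level over both arms, 0 a higher one, and the median log2 fold change of the 12 was -0.61 (0.08 over all genes); without cultures 4, 12 and 16, 4 of 12 had an adjusted p of at most 0.05, all lower. Panx2 made up 2.79 to 4.27% of the summed neuron markers in CONTROL-VEH and 2.35 to 3.57% in OGD-VEH cultures, ranges that overlapped (exact permutation p = 0.486). The part of neuron number in the difference was not tested.

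Panx2 has 3 isoforms at chr15:89059734-89073567 (plus strand, GRCm38), and each was below its CONTROL-VEH range in all OGD-VEH cultures, as were 5.83% of the 53087 isoforms tested. The 355-base Panx2-201, at the 3′ end of the gene, carried 86.2% of the summed FPKM but 40.7% of FPKM times length. The 3391-base Panx2-203 was at 11.5 ± 1.30 FPKM in CONTROL-VEH, 10.5 ± 0.263 in CONTROL-TIA, 6.47 ± 1.94 in OGD-VEH and 8.57 ± 2.15 in OGD-TIA (SD, n = 4 each). Its 8 CONTROL cultures kept to a narrow range, and in OGD-VEH it was at 8.98, 6.33, 6.32 and 4.26 FPKM. Its log2 fold change was -0.87 in OGD-VEH against CONTROL-VEH (SE 0.23, limma adjusted p over isoforms = 0.145) and -0.60 over both arms (SE 0.17, adjusted p = 0.0404). Of the members' isoforms, 0 were DEGs in any comparison with the filter on low values; OGD-VEH against CONTROL-VEH had 0.141% DEGs among all isoforms tested, and both arms had 1.86%.

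Panx1 differed little between groups. Its summed FPKM was 250.2 to 384.0 in CONTROL-VEH, 295.2 to 383.6 in CONTROL-TIA, 233.6 to 367.2 in OGD-VEH and 285.0 to 345.2 in OGD-TIA. The lowest value of each of CONTROL-VEH, OGD-VEH and OGD-TIA was that of culture 4, 12 or 16, and the groups overlapped throughout. The log2 fold change was -0.01 in OGD-VEH against CONTROL-VEH (adjusted p = 0.960) and -0.03 in OGD-TIA against CONTROL-TIA (adjusted p = 0.877). Over both arms it was -0.02 with a 95% confidence interval from -0.24 to 0.19. The sign changed with other settings: with isoforms weighted by length the value over both arms was 0.07.

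The isoforms of Panx1, at chr9:15002128-15045478 (minus strand), did not all follow the sum. The 357-base Panx1-204 carried 79.8% of the summed FPKM and 35.2% of FPKM times length. The 1854-base Panx1-201, annotated as a target of nonsense-mediated decay, was at 23.6, 26.3, 23.4 and 17.2 FPKM in CONTROL-VEH and at 31.0, 30.4, 28.9 and 31.1 in OGD-VEH. The groups did not overlap (exact permutation p = 0.0286; log2 fold change 0.44, SE 0.14, adjusted p = 0.179), which held in this direction for 7.57% of isoforms. With TIA it was at 26.2 ± 2.70 in CONTROL-TIA and 26.5 ± 2.97 in OGD-TIA. The 5732-base Panx1-202, which covers the whole gene, was at 17.8 ± 0.974, 18.0 ± 0.581, 18.4 ± 2.16 and 20.5 ± 1.62 FPKM (SD, n = 4 each) in the 2 CONTROL groups (vehicle, then TIA) and the 2 OGD groups in the same order. All OGD-TIA cultures (18.7 to 22.1) were above all CONTROL-TIA cultures (17.3 to 18.6; exact permutation p = 0.0286, adjusted p = 0.521), as in 5.27% of isoforms. How 50-base reads are shared between isoforms is estimated, so single isoforms are less certain than sums.

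**Figure D2:**
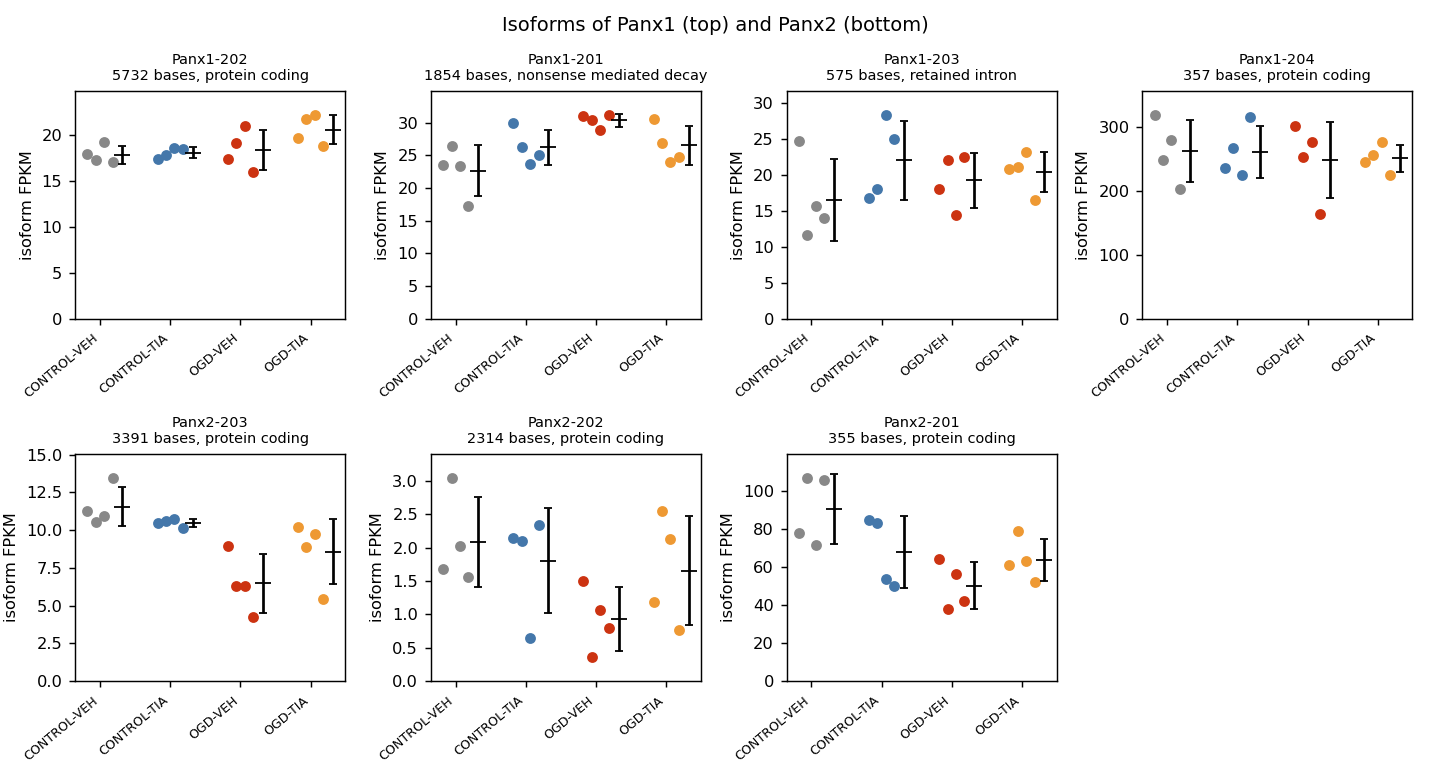
FPKM of each isoform of Panx1 (4, top row) and Panx2 (3, bottom row) in the 16 cultures, by group, with isoform length and annotation above each panel; axes are linear and start at 0. Points are cultures and black bars the mean and SD of 4; all 3 Panx2 isoforms are lower in OGD-VEH than in CONTROL-VEH without overlap, and Panx1-201 is higher.

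Gja1 had higher means after OGD. Its summed FPKM was 25.8, 27.5, 32.3 and 59.6 in CONTROL-VEH cultures 1 to 4, and 25.4, 29.1, 29.7 and 35.0 in CONTROL-TIA cultures 5 to 8. It was 37.8, 60.2, 56.9 and 130.4 in OGD-VEH cultures 9 to 12, and 34.9, 37.5, 31.98 and 97.9 in OGD-TIA cultures 13 to 16. The highest value of each of CONTROL-VEH, OGD-VEH and OGD-TIA was that of culture 4, 12 or 16, and the OGD range overlapped the CONTROL range in both arms. The means were 71.3 ± 40.6 in OGD-VEH against 36.3 ± 15.8 in CONTROL-VEH (log2 fold change 0.90, SE 0.40, limma adjusted p = 0.143; exact permutation p = 0.0857). In OGD-TIA and CONTROL-TIA they were 50.6 ± 31.6 and 29.8 ± 3.92 (log2 fold change 0.60, SE 0.34, adjusted p = 0.352; exact permutation p = 0.0857).

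Over both arms Gja1 rose by 0.75 on the log2 scale (SE 0.27, limma adjusted p = 0.0455; 95% confidence interval 0.17 to 1.33), below the size for a DEG. Leaving out cultures 4, 12 and 16 gave 0.51 (SE 0.14, adjusted p = 0.0284). The adjusted p was above 0.05 without any single one of cultures 1, 2, 3, 5, 6, 7, 8, 10, 11, 12 and 16. Without the 3 cultures, the CONTROL-VEH cultures lay between 25.8 and 32.3 and the OGD-VEH cultures between 37.8 and 60.2, with no overlap (exact permutation p = 0.1, the smallest that 3 against 3 allow). With 4 against 4 cultures, 12.7% of all genes were separate in this direction, and the share for 3 against 3 was not computed. The OGD-TIA cultures without culture 16, between 31.98 and 37.5, overlapped the CONTROL-TIA cultures. The interaction was -0.30 (SE 0.56, adjusted p = 0.876) over all cultures.

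The share of the 12 astrocyte markers that passed adjustment over both arms, in either direction, was near that of all genes. Of the 12, 4 had an adjusted p of at most 0.05 and a higher level over both arms (Sox9, Aldh1l1, Fgfr3 and Mlc1), and 0 a lower one. Together this was 33.3% against 32.1% of all genes (18.7% higher). In OGD-VEH against CONTROL-VEH 0 of the 12 had an adjusted p of at most 0.05, against 8.39% of all genes. Over both arms the other 8 did not pass, with values from -0.46 (Slc1a2) to 1.23 (Gfap). The median log2 fold change of the 12 was 0.48 (0.08 over all genes). Without cultures 4, 12 and 16, 5 were higher and 1 lower. Their summed FPKM was 1838 in culture 4, 2897 in culture 12 and 2194 in culture 16. As a share of the summed astrocyte markers, Gja1 made up 2.81 to 3.24% in CONTROL-VEH and 3.14 to 4.50% in OGD-VEH cultures (exact permutation p = 0.0571), and 2.64 to 3.63% in CONTROL-TIA and 3.16 to 4.46% in OGD-TIA (p = 0.314, exact permutation). These ranges overlapped in both arms. Of 8 markers of radial glia and progenitors, which also express Gja1, 4 had an adjusted p of at most 0.05 over both arms, all higher. The summed FPKM of the 8 was 474.9 to 677.2 in CONTROL and 829.7 to 3018 in OGD cultures. The part of the numbers of these cells in the difference was not tested.

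**Figure D3:**
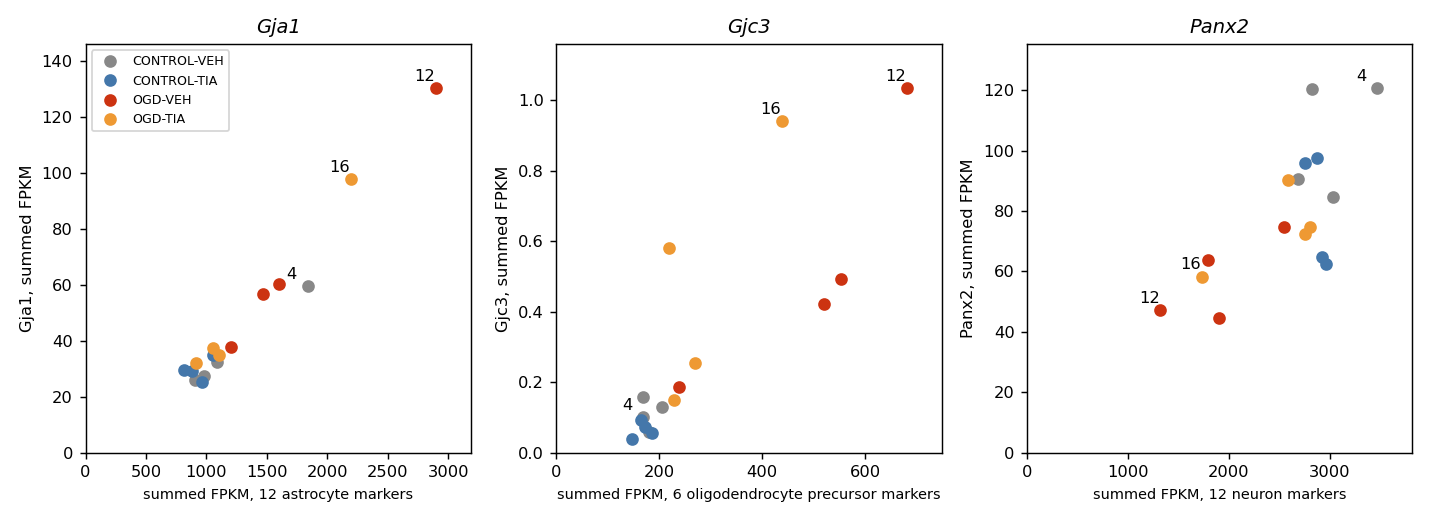
Summed FPKM of Gja1, Gjc3 and Panx2 (vertical) against the summed FPKM of 12 astrocyte, 6 oligodendrocyte precursor and 12 neuron markers (horizontal) in the 16 cultures, with colours for groups and numbers beside cultures 4, 12 and 16. Axes are linear and start at 0; cultures 12 and 16 have the highest Gja1 and astrocyte markers, and OGD-VEH culture 12 has the lowest neuron markers.

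Gja1 spans chr10:56377330-56402513 (plus strand) and has 8 isoforms, of which 3 were listed at 0 in every culture. Gja1-201, of 3071 bases, carried between 93.9 and 99.8% of the summed FPKM in each culture. The genes with the most similar pattern over the 16 cultures were Ednrb (an endothelin receptor), S1pr1 (a receptor for sphingosine-1-phosphate) and Igsf11 (an adhesion molecule). Their root-mean-square difference from Gja1, after each gene was centred on its own mean log2 value, was 0.09, 0.10 and 0.10, against a median of 0.70 over 13268 protein-coding genes.

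Gjb2 and Gjb6 were barely detected. Gjb2 was between 0.037 and 0.228 FPKM, about 2.0 to 12.4 reads a culture at the estimated depth, and Gjb6 was between 0 and 0.076 FPKM, about 0 to 3.1 reads. Neither passed the filter on low values. Gjb6 was listed at 0 in 7 of 16 cultures, in which Gja1 was at 25 FPKM or more. Gjb2 means were 0.111 ± 0.0348 in CONTROL-VEH, 0.079 ± 0.0292 in CONTROL-TIA, 0.161 ± 0.0662 in OGD-VEH and 0.114 ± 0.0202 in OGD-TIA, and all groups overlapped (exact permutation p between 0.0857 and 0.257). Differences in either gene were not detectable at this depth. The 2 genes lie next to each other, at chr14:57098600-57104702 and chr14:57123303-57133611, both on the minus strand.

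Gjc3, a connexin of the oligodendrocyte lineage, was higher in every OGD culture than in the CONTROL cultures of its arm, at low levels. Its summed FPKM was 0.159, 0.060, 0.131 and 0.101 in CONTROL-VEH and 0.093, 0.072, 0.056 and 0.039 in CONTROL-TIA. It was 0.186, 0.492, 0.422 and 1.036 in OGD-VEH and 0.580, 0.254, 0.150 and 0.942 in OGD-TIA. These values correspond to about 4.0 to 14.7 reads in CONTROL and 14.7 to 65.5 reads in OGD cultures at the estimated depth. The groups did not overlap in either arm (exact permutation p = 0.0286 in each). The vehicle groups were close, as CONTROL-VEH culture 1 and OGD-VEH culture 9 were both at about 14.7 reads. Separation in the same direction held for 12.7% of genes in the vehicle arm and 9.51% in the TIA arm, where 6.69% were separate in the other direction. These shares cover only genes that passed the filter on low values. Gjc3 passed the filter on low values in OGD-TIA against OGD-VEH but not in the comparisons of OGD with CONTROL. Without the filter, its log2 fold change was 1.43 (SE 0.43, limma adjusted p = 0.117) in OGD-VEH against CONTROL-VEH, 1.61 (SE 0.44, adjusted p = 0.243) in OGD-TIA against CONTROL-TIA and 1.52 (SE 0.30, adjusted p = 0.00758) over both arms, where it met both criteria for a DEG. With the filter, 2.79% of all genes were DEGs with a higher level over both arms. OGD-TIA and OGD-VEH overlapped (log2 fold change -0.17, SE 0.58, adjusted p = 0.898). Cultures 12 and 16 held the highest Gjc3 of their groups. Without cultures 4 and 12, Gjc3 was 0.186 to 0.492 FPKM in OGD-VEH and 0.060 to 0.159 in CONTROL-VEH. The log2 difference was then 1.07 (exact permutation p = 0.1, the smallest that 3 against 3 allow).

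The oligodendrocyte precursor markers moved with Gjc3. In OGD-VEH against CONTROL-VEH, 4 of 6 were DEGs with a higher level (Olig1, Olig2, Sox10 and Cspg4), against 2.4% of all genes, and 0 were lower; over both arms 5 of 6 had an adjusted p of at most 0.05, all higher. Without cultures 4, 12 and 16 these counts were 0 DEGs of 6 and 3 of 6. Their summed FPKM was 148.0 to 205.4 in CONTROL and 220.0 to 681.0 in OGD cultures. Relative to this sum, Gjc3 overlapped between CONTROL-VEH and OGD-VEH (exact permutation p = 0.114) and did not overlap between CONTROL-TIA and OGD-TIA, where all OGD-TIA cultures were higher (exact permutation p = 0.0286). Of 8 markers of mature oligodendrocytes, Mog and Mobp were at 0.109 FPKM or less, and the list summed to 21.1 to 41.3 FPKM in CONTROL and 19.9 to 48.7 in OGD cultures. Over both arms 5 were tested, and 1 (Mbp, -0.68) had an adjusted p of at most 0.05. The part of cell number in the difference was not tested. Gjc3 lies at chr5:137953461-137963098 on the minus strand. Its protein-coding isoform Gjc3-201 accounted for the whole sum in 13 cultures, and the retained-intron isoform Gjc3-202 was listed above 0 in cultures 12, 13 and 16.

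Gjc1 rose after OGD over both arms, by a small and even amount. Its summed FPKM was 8.25, 7.495, 7.405 and 8.41 in CONTROL-VEH and 6.89, 7.72, 7.38 and 7.94 in CONTROL-TIA. It was 8.05, 10.6, 9.27 and 11.1 in OGD-VEH and 9.20, 9.93, 9.17 and 10.3 in OGD-TIA. All OGD-TIA cultures were above all CONTROL-TIA cultures (exact permutation p = 0.0286), as in 9.51% of all genes tested. In the vehicle arm 3 of 4 OGD cultures exceeded the highest CONTROL culture (p = 0.0857, exact permutation). The log2 fold change over both arms was 0.33 (SE 0.075, limma adjusted p = 0.00625), and it kept an adjusted p of at most 0.05 when each culture was left out and without cultures 4, 12 and 16 (0.30, adjusted p = 0.0176). Over both arms 18.7% of all genes had an adjusted p of at most 0.05 and a higher level. The median log2 fold change of all genes was 0.08. In the single arms the log2 fold change of Gjc1 was 0.29 (SE 0.14, adjusted p = 0.171) with vehicle and 0.36 (SE 0.092, adjusted p = 0.132) with TIA. The interaction was 0.07 (SE 0.15, adjusted p = 0.90), and OGD-TIA differed from OGD-VEH by -0.01 (95% confidence interval -0.31 to 0.30).

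Gjc1 lies at chr11:102799579-102819700 (minus strand) and has 5 isoforms, 1 of them listed at 0 throughout. The split among the others was unstable between cultures: Gjc1-203 took 78.8% of the sum in CONTROL-VEH culture 3, where Gjc1-201, the leading isoform over all cultures with 53.5%, took 10.4%. None of the isoforms had an adjusted p of at most 0.05 in a comparison. The most similar genes in pattern were Cramp1l, Jmy and Ubxn7, at root-mean-square log2 differences of 0.08 to 0.09.

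Gjd2, the connexin of electrical synapses, did not pass the test in any comparison. Its FPKM was 4.89, 4.99, 6.37 and 5.46 in CONTROL-VEH and 5.00, 5.30, 5.43 and 5.93 in CONTROL-TIA. It was 5.20, 4.51, 4.51 and 4.00 in OGD-VEH and 5.46, 5.22, 5.42 and 3.80 in OGD-TIA. The lowest values were those of OGD cultures 12 and 16, and groups overlapped in both arms. The log2 fold change was -0.25 (SE 0.15, adjusted p = 0.269) in OGD-VEH, -0.13 (SE 0.14, adjusted p = 0.621) in OGD-TIA and -0.19 (SE 0.095, adjusted p = 0.136) over both arms. The level per summed neuron marker was 0.157 to 0.210% in CONTROL-VEH and 0.204 to 0.303% in OGD-VEH cultures (exact permutation p = 0.0571). Of 9 interneuron markers, 5 had an adjusted p of at most 0.05 with a lower and 1 with a higher level over both arms. Of all genes, 13.4% and 18.7% did. Without cultures 4, 12 and 16, 3 of 8 passed, all lower, and in OGD-VEH against CONTROL-VEH 1 of 9 did (Sst, lower). Their summed FPKM was 451.4 to 836.2 in CONTROL and 241.7 to 462.8 in OGD cultures. Gad1 and Gad2 are also among the neuron markers. The part of interneurons was not tested. Gjd2 has 1 isoform, at chr2:114009601-114013619 on the minus strand, whose exons overlap the annotated gene A530058N18Rik on the other strand; the library kit was stranded. The genes most similar in pattern were Lrrc4, Itfg1 and Yaf2, at 0.08 to 0.09.

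**Figure D4:**
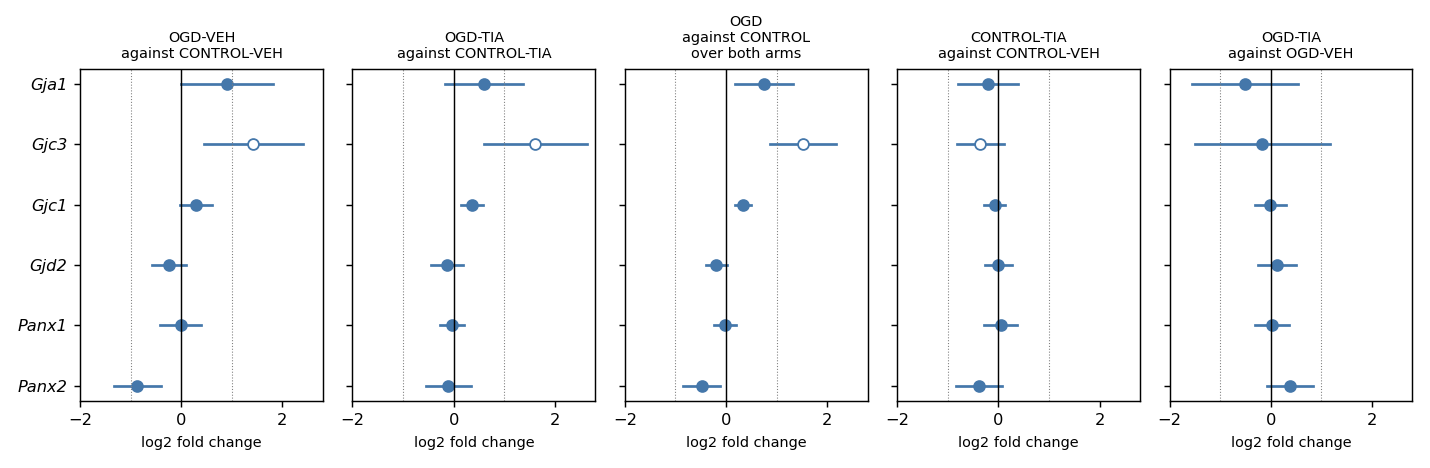
Log2 fold change of 6 genes (Gjb2 and Gjb6 left out for their low counts) in 5 comparisons, on the log2(FPKM + 0.1) scale, with 95% confidence intervals as bars; open points were below the filter on low values, and dotted lines mark -1 and 1. Over both arms the intervals of Gja1, Gjc3 and Gjc1 lie above 0 and that of Panx2 below 0, and in both comparisons of TIA with vehicle all intervals include 0.

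TIA alone did not separate the members. In CONTROL-TIA against CONTROL-VEH the log2 fold changes of the 5 tested members lay between -0.39 (Panx2) and 0.04 (Panx1), and in OGD-TIA against OGD-VEH those of the 6 tested lay between -0.51 (Gja1, SE 0.46, adjusted p = 0.617) and 0.38 (Panx2). No member had separate groups in either comparison; in the first, 0.962% of all genes were separate with a higher and 1.11% with a lower level, and in the second 1.29% and 2.49%. Limma called 0 DEGs among all genes in both, and in OGD-TIA against CONTROL-TIA; unadjusted p was under 0.05 for 3.85%, 7.89% and 19.5% of genes, in this order. The counts of DEGs moved with the settings, with up to 4, 402 and 80. With a count model and the same thresholds, the study reported DEGs in OGD-TIA against CONTROL-TIA. It also reported more DEGs in OGD-VEH against CONTROL-VEH than limma called here. The 0 in the TIA arm thus holds for limma on FPKM and does not mean that OGD changed no gene there.

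The remaining 15 connexin and pannexin genes were low. Gja4 (connexin 37, of vessel walls) and Gjb1 (connexin 32, of oligodendrocytes) each reached a mean of 0.5 FPKM in at least 1 group. Gja4 had means of 0.888 in CONTROL-VEH, 1.05 in CONTROL-TIA, 0.413 in OGD-VEH and 0.760 in OGD-TIA (log2 fold change over both arms -0.75, SE 0.30, adjusted p = 0.0654). Gjb1 had means of 0.362, 0.345, 0.618 and 0.534 FPKM in the same order. Neither had an adjusted p of at most 0.05 in a comparison in which it was tested.

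Of 33 partners of the channels (scaffolds, kinases, proteases, purinergic receptors and ATP-degrading enzymes), 32 were tested in OGD-VEH against CONTROL-VEH, and 2 were DEGs with a higher and 2 with a lower level. This is 12.5%, against 4.06% of all genes, and the median log2 fold change was 0.02 (0.10 over all genes). The list also holds Trp53, which is in none of the classes named. The study had reported Trp53 as higher after OGD in the same libraries, so the shares of DEGs in this list are not independent of that report. P2ry2, a receptor for extracellular ATP and UTP, rose from 0.308 ± 0.0574 to 2.24 ± 1.22 FPKM (log2 fold change 2.27, SE 0.53, adjusted p = 0.0440). Trp53, which encodes the transcription factor p53, rose from 40.04 ± 22.7 to 142.1 ± 26.3 FPKM (2.0, SE 0.40, adjusted p = 0.0349). Ccn3, listed as Nov, whose secreted product binds connexin 43, fell from 44.8 ± 1.72 to 21.8 ± 8.06 FPKM (-1.11, SE 0.23, adjusted p = 0.0376), and the kinase gene Prkce fell from 77.0 ± 2.92 to 35.6 ± 16.2 FPKM (-1.23, SE 0.31, adjusted p = 0.0485). Over both arms 2 of the 32 were DEGs (P2ry2 and Trp53), 6.25% against 4.76% of all genes, and 4 had an adjusted p of at most 0.05 with a higher and 7 with a lower level, together 34.4% against 32.1% of all genes. Both shares were near those of all genes, and the median was 0.02 (0.08 over all genes; -0.04 with median-ratio scaling, a change of sign). Without cultures 4, 12 and 16, 0 of the 32 were DEGs in the vehicle arm, and 2 higher and 1 lower of 31 over both arms.

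Of 69 gap junction signalling genes (receptors, G proteins, cyclases, kinases and tubulins), 64 were tested over both arms, and 8 had an adjusted p of at most 0.05 with a higher and 24 with a lower level, together 50.0% against 32.1% of all genes. The median log2 fold change was -0.20 (0.08 over all genes). Without cultures 4, 12 and 16 the counts were 4 higher and 11 lower, together 23.4% against 20.7% of all genes. The neuron markers, of which 8 of 12 had an adjusted p of at most 0.05 and a lower level, moved in the same comparison, and their part was not tested. The DEGs with the largest rise were Egfr (2.06, SE 0.44, adjusted p = 0.00481), Tubb6 (1.82, SE 0.43, adjusted p = 0.00742) and Cdk1 (1.62, SE 0.58, adjusted p = 0.0430), a receptor, a tubulin and a cell cycle kinase. The DEGs that fell included Adcy7 (-1.10, SE 0.20, adjusted p = 0.00233) and Pdgfb (-1.03, SE 0.32, adjusted p = 0.0262), an adenylyl cyclase and a growth factor. Pdgfra and Lpar1 were also DEGs with a higher level. In OGD-VEH against CONTROL-VEH 3 were DEGs, Tubb6 (2.62) with a higher level and Tuba4a (-1.23) and the calcium release channel gene Itpr1 (-1.51) with a lower one, and the median of the 64 was -0.26 (0.10 over all genes). In OGD-TIA against CONTROL-TIA, in both comparisons of TIA with vehicle and in the interaction, 0 genes of either list passed adjustment.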

How the data were processed

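Libraries of poly(A) RNA were stranded and read from 1 end over 50 bases; per the study's methods, STAR aligned the reads to GRCm38 (annotation of Ensembl 92) and eXpress estimated the abundance of each isoform. The deposited values are FPKM per isoform with TMM scaling by the authors, as the name of the table states; they are not counts, so the study's DESeq2 model was not applied to them. Of 135276 lines, 74 without an identifier were left out. In GENCODE M21, 99.82% of isoforms were found by identifier, and 98.86% of these had the same start and end. Isoform FPKM were summed per gene identifier of GENCODE M21, or per symbol where an isoform was not found there, and 0.1 was added before log2. A gene entered a fit when its mean over the cultures in that fit reached 0.5 FPKM, and limma 3.58.1 (R 4.3.3, trend on mean expression) gave p-values with Benjamini-Hochberg adjustment over every gene in the fit. DEGs were genes with adjusted p up to 0.05 whose log2 fold change was 1 or more in size. Pairwise fits used 8 cultures, and the fit over both arms and the interaction used 16. For the 8 members, each pairwise comparison also had an exact permutation test on both sides (32 tests of 70 assignments each). The procedure was tested on simulated data.

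Depth was estimated from the value of 1 read in single-isoform genes, at 20000000 to 26100000 reads (median 23400000), in part above the range in the labels. Only 31.7 to 35.6% of small values fell within 0.1 of a whole read, so read numbers are approximate and no counting intervals were computed.

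The members, markers and lists were chosen with earlier results of these data known. All 8 members are described; from the partner and signalling lists, the DEGs are named, or the 3 with the largest rise and fall where more than 6 were called; some items are not reported here. Pdgfra and Lpar1 were named after their values were seen. Alternatives were other pseudocounts, filters, scaling, culture weights, length weighting, 1 fit of all cultures and leaving out cultures; leaving out cultures 4, 12 and 16, relating members to markers and recounting the lists were chosen after seeing the data. Python 3.11.15, numpy 2.4.6, pandas 2.3.3 and matplotlib 3.10.9 were used.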

Additional observations from a re-analysis of the deposited data

Results flagged for a closer look

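In 3 of 32 groups of 4 cultures, 1 culture lay farther from the others than Dixon's limit at 95% allows, and chance alone gives about 1 in 20 groups. Gja1 was 97.9 FPKM in OGD-TIA culture 16, against 31.98 to 37.5 in the other 3. Gjd2 was 3.80 FPKM in the same culture, against 5.22 to 5.46. Gjb2 was 0.084 FPKM in OGD-TIA culture 15, against 0.120 to 0.127, a difference of few reads.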

How the results depend on the processing

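The count of DEGs among the members changed under 2 alternatives: it went from 0 to 1 in OGD-VEH against CONTROL-VEH when 1 culture was left out (range 0 to 1; Panx2 without culture 9), and over both arms from 0 to 1 with no filter on low values (Gjc3; among isoforms also 1, Gjc3-201). The second follows from admitting Gjc3 to the test; the cause of the first was not tested. The sign of small log2 differences turned. For Panx1 it was 0.081, 0.057 and 0.069 with length weighting (OGD-VEH, OGD-TIA and both arms against CONTROL), 0.012, -0.025 and 0.022 with culture weights (OGD-TIA against CONTROL-TIA, CONTROL-TIA against CONTROL-VEH, interaction), 0.021 with median-ratio scaling (interaction), and 0.014, -0.062, 0.016 and 0.0044 without cultures 4, 12 and 16 (OGD-VEH against CONTROL-VEH, OGD-TIA against OGD-VEH, both arms, interaction). Panx2 was 0.035 with culture weights (OGD-TIA against CONTROL-TIA), and Gjc1 0.042 with median-ratio scaling and 0.029 without the 3 cultures (OGD-TIA against OGD-VEH). When cultures were left out 1 at a time, Panx1 ranged from -0.12 to 0.12 (OGD-VEH against CONTROL-VEH), -0.079 to 0.047 (OGD-TIA against CONTROL-TIA), -0.066 to 0.14 (CONTROL-TIA against CONTROL-VEH), -0.11 to 0.10 (OGD-TIA against OGD-VEH), -0.076 to 0.040 (both arms) and -0.16 to 0.092 (interaction). Panx2 ranged from -0.21 to 0.0064 (OGD-TIA against CONTROL-TIA), Gja1 from -0.34 to 0.060 (CONTROL-TIA against CONTROL-VEH) and -0.68 to 0.039 (interaction), Gjd2 from -0.046 to 0.079 (CONTROL-TIA against CONTROL-VEH), Gjc1 from -0.094 to 0.060 (OGD-TIA against OGD-VEH) and -0.019 to 0.14 (interaction), and Gjc3 from -0.50 to 0.16 (OGD-TIA against OGD-VEH). Among all genes, DEGs in OGD-VEH against CONTROL-VEH numbered 666, with 2 without cultures 4, 12 and 16 and 1930 with culture weights; over both arms they numbered 779, with a range from 393 to 843; median-ratio scaling turned the split of genes with an adjusted p of at most 0.05 from 816 higher and 560 lower to 644 and 665 in OGD-VEH against CONTROL-VEH, and from 3056 and 2193 to 2377 and 2668 over both arms; in the interaction there were 0 to 3. An adjusted p of at most 0.05 over both arms was lost by Panx2 with culture weights, with no filter and without the 3 cultures, and by Gja1 with median-ratio scaling and with no filter. Gjb2 and Gjb6 are limited by depth. No paired analysis was run, because the cultures carry numbers 1 to 16 that no 2 groups share and the labels state no pairing. Cultures 4, 12 and 16 are each the last in number of their group. Culture 8, the last of CONTROL-TIA, had the highest summed astrocyte markers of its group (1057.5 FPKM). Whether the order within groups reflects shared preparations cannot be told from the labels.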
